A study of Mus musculus with 8 samples.

Results

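The interferon response list held 40 mouse genes: the receptor subunits for type I and type II interferon, the transcription factors that act below them, and genes whose transcription interferons induce. Members were chosen by symbol. A member was measured when a probe set was annotated to it alone, and where a gene had several such probe sets the one that was brightest on average across the 8 arrays was used. This held for 36 of the 40, among 19937 genes in all. Isg15, Gbp2 and Igtp share their probe sets with another gene, and Ifi44 had no probe set of its own name, so these 4 have no value here. Expression was measured on Affymetrix mouse gene arrays in 4 normal control livers and 4 liver tumours, with 1 array for each. The labels describe the tumours as driven by human c-MYC, expressed in the liver from the CEBPB-LAP promoter under doxycycline control and collected at the humane endpoint, and the normal livers as taken from matched mice. They give no strain, age, sex, genotype of the controls or doxycycline schedule, and they repeat the transgene text for both groups. They number the samples without naming the mice, so a p-value here reflects only how these samples vary, which may be technical.

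Type I interferon binds the receptor pair Ifnar1 and Ifnar2, and type II interferon binds Ifngr1 and Ifngr2. Janus kinases on these receptors phosphorylate STAT proteins. Complexes that hold STAT2 and IRF9 then bind the interferon-stimulated response element (ISRE) of target genes, while STAT dimers bind the gamma-activated site (GAS). Liver cells of many kinds can respond, and the induced genes include RNA sensors, nucleases, membrane proteins and GTPases that restrict viruses and intracellular microbes, together with inhibitors that end the signal.

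Promoter sequence was available for 33 of the 40 members, as RefSeq windows (build GRCm38.p6) of 250 bases before to 50 after an annotated start. Windows were searched on both strands for the ISRE, taken as GAAA, any 2 bases and GAAA, and for the GAS, taken as TTC, any 3 bases and GAA, which reads the same on either strand; matches of both motifs may overlap. An ISRE match lay in a window of 16 of the 33 members (48.5%) and of 1079 of all 27025 genes with a window (3.99%). A GAS match lay in a window of 11 members (33.3%) and of 2582 of all genes (9.55%). The list was assembled as interferon-responsive genes, so these shares describe the list. The stretches below are shown because the first 3 belong to members that fell in tumours and the last 3 to members that did not pass the test, although all carry the same element; capitals mark ISRE matches, and each stretch reads 5′ to 3′ on the gene's strand.
Irgm1, chr11:48871421-48871480, minus strand: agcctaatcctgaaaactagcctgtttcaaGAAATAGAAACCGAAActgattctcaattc
Stat2, chr10:128270251-128270310, plus strand: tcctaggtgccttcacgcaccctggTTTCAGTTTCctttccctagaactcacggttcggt
Irf2, chr8:46739495-46739554, plus strand: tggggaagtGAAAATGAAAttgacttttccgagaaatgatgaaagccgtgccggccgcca
Ifit1, chr19:34640770-34640829, plus strand: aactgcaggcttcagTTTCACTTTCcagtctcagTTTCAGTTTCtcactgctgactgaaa
Ifit3, chr19:34583365-34583424, plus strand: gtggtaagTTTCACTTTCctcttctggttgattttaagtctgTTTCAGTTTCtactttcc
Oas1a, chr5:120907526-120907585, minus strand: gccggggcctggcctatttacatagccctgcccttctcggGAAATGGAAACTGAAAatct
The Irgm1 and Oas1a stretches each hold a pair of overlapping matches directly before the start, and those of Ifit1 and Ifit3 hold a pair of separate matches. The Irf2 and Stat2 matches lie farther from the start, at positions -241 to -232 and -222 to -213. Ifit1, Ifit3 and Oas1a had group means of 5.84 to 6.51, near the reference for dim signal given below, so a change in them may be missed. Ifih1 and Ifitm3, the members with the largest falls, had their ISRE matches after the annotated start. Among members with a window, an ISRE match was found for 5 of the 8 that were lower in tumours (62.5%) and for 8 of the 21 that did not pass the test (38.1%). A match is a description of the sequence and not a shown binding site.

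Values are log2 and were used as deposited, so a difference of 1 is 2-fold. The median SD over all genes was 0.16 among controls and 0.17 among tumours. Array medians lay between 6.33 and 6.44. The table carries no detection calls, so the 1027 measured olfactory receptor genes, which liver is not known to express, served as a reference for dim signal, and the 95th percentile of their means was 6.20. Probe sets differ in brightness, so a value under 6.20 says only that signal above such genes was not shown. Some of the reference genes themselves lie above 6.20, so a value above it does not by itself show expression. One array stood apart by the sex-linked genes. Xist, the X inactivation RNA, read 11.89 in control liver 3 and 4.86 to 7.12 on the other 7 arrays, while the Y-linked gene Eif2s3y read 3.46 there and 8.56 to 9.37 elsewhere. Control liver 1 also stood apart for Saa1, an acute phase gene, with 12.44, while the remaining controls read 6.28 to 8.06. In bulk tissue, fewer cells of a type and less RNA per cell cannot be told apart.

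Interferon response genes were lower more often than higher in the tumours. Of the 36 measured, 11 fell (30.6%) and 1 rose (2.78%) at an adjusted p of 0.05 (limma, Benjamini-Hochberg over all 19937 genes), where 12.7% of all genes fell and 16.2% rose. The falls were in Ifitm3, Ifih1, Irf2, Rtp4, Irgm1, Ifnar2, Parp14, Mx2, Stat2, Irf9 and Irf5, and the only rise was in Usp18. Falls of at least 2-fold were found for 6 of the 36 members (16.7%), against 4.68% of all genes, and a rise of that size for 1 (2.78%), Usp18, against 5.54% of all genes. In either direction 12 members passed (33.3%), against 28.9% of all genes. Groups did not overlap for 14 of 36 members (38.9%), against 30.2% of all genes. The tumours were the lower group for 12 of these, or 33.3% of members, against 13.9% of all genes. The median log2 change was -0.31 over the members and -0.04 over all genes, and 27 of 36 had a change below 0 at any p, as did 55.9% of all genes. The counts of 11 and 1 were the same without control liver 3.

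Several of the classical induced genes were dim. Both group means lay at or under 6.20 for Irf7, Ifit2, Oas1b and Mx1, and 1 of the means did so for Ifit1, Ifit3, Oas3 and Rsad2. The other 28 members, among them Oas1a, Oas2, Oasl1, Oasl2 and Mx2, had both means above it. Some were only just above, such as the Mx2 tumour mean of 6.21. Among the 16 members whose mean over the 8 arrays was at least 1 log2 unit above the reference, 8 fell and 1 rose, where 21.8% of all genes in that range fell and 32.9% rose. Of the 14 members less than 1 unit above it, 3 fell and none rose, where 11.7% of all genes in that range fell and 14.8% rose. Of the 6 at or under it none passed the test in limma, with Rsad2 alone at an unadjusted p under 0.05, where 5.67% of all genes fell and 2.94% rose. For a gene near the reference, a difference may understate or miss a change.

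**Figure D1:**
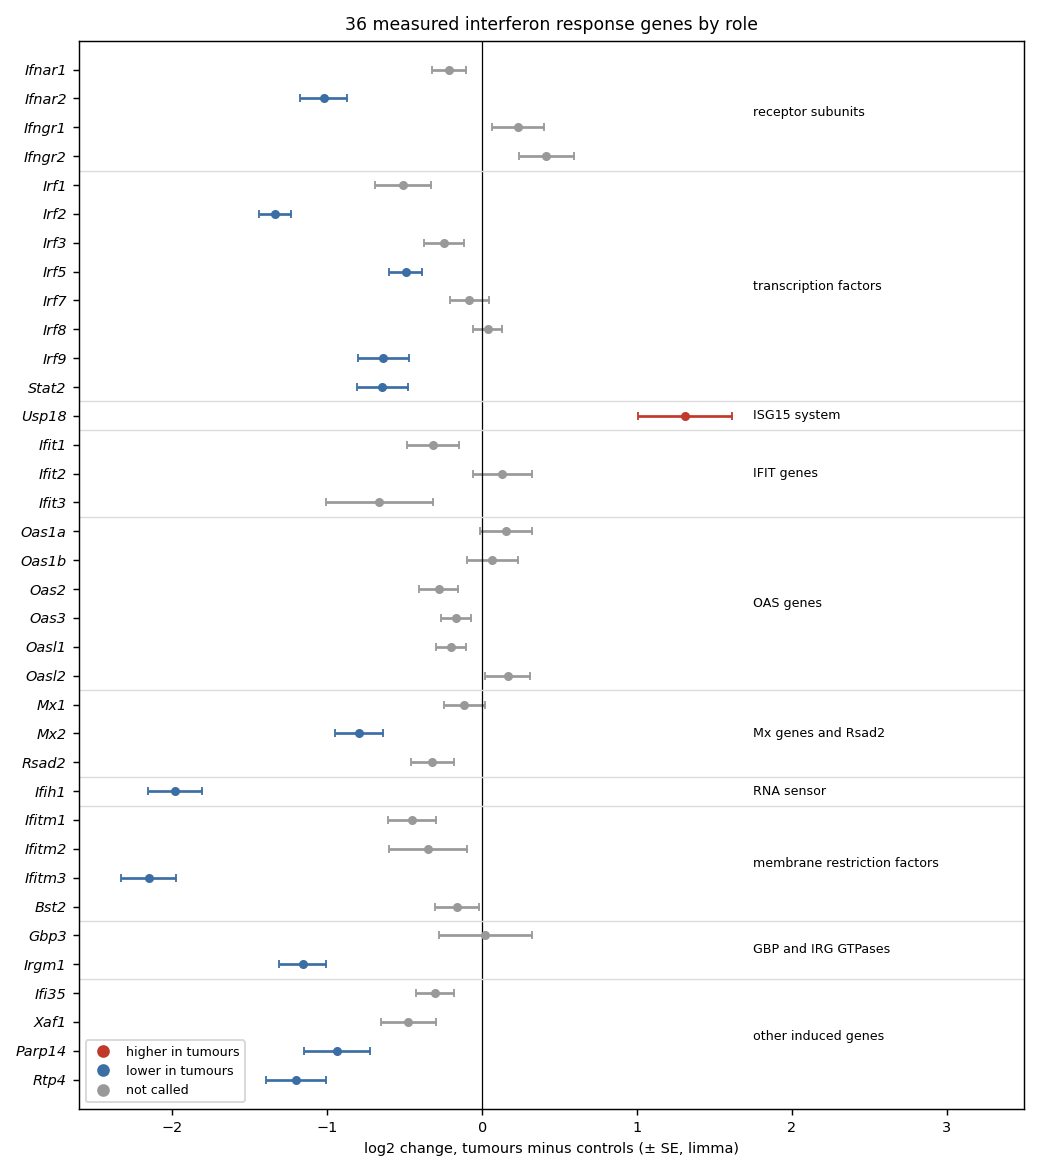
Tumour minus control difference in log2 (± SE, limma) of the 36 measured interferon response genes, grouped by role from receptors at the top to other induced genes at the bottom. Blue points passed an adjusted p of 0.05 as lower, the red point as higher, and grey points did not pass; 11 were lower, with Ifitm3 at -2.15 and Ifih1 at -1.98 as the largest falls, and Usp18 at 1.31 was the only rise.

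At the receptors, only the type I subunit Ifnar2, the chain that binds interferon most tightly, passed the test. Ifnar2 read 10.64, 10.05, 10.43 and 10.26 in control livers 1 to 4 and 9.10, 9.49, 9.55 and 9.15 in tumours 1 to 4. All tumours lay below all controls, by 2.03-fold (log2 change -1.02, SE 0.15, adjusted p = 0.000471 in limma). Its partner Ifnar1 had means of 7.91 ± 0.17 and 7.70 ± 0.10 (SD, n = 4 and 4), with a change of -0.22 and a 95% interval of -0.46 to 0.03. Of the type II receptor, Ifngr1, the ligand-binding chain, changed by 0.23 (interval -0.14 to 0.60). Ifngr2, the signalling chain, read 8.07, 7.28, 8.13 and 8.05 in controls and 8.42, 8.30, 8.32 and 8.14 in tumours. All 4 tumours were above all controls for Ifngr2, but control liver 2 lay far under the other controls and the change of 0.41 did not pass (SE 0.18, adjusted p = 0.117 in limma).

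Among 8 transcription factors 4 fell and none rose, where 12.7% of all genes fell and 16.2% rose. Their median change was -0.50. Irf2, which represses many ISRE genes and activates others, fell most. It read 9.88, 9.94, 10.07 and 10.08 in controls and 8.63, 8.71, 8.80 and 8.48 in tumours, a 2.53-fold difference with little spread in either group (log2 change -1.34, SE 0.10). Stat2 and Irf9, whose proteins act together at the ISRE, both fell, with log2 changes of -0.645 and -0.64 and an SE of 0.16 each. Stat2 read 7.58, 7.47, 7.76 and 8.02 in controls and 7.23, 7.19, 7.20 and 6.63 in tumours, where tumour 4 was below the others. Irf9 read 7.06, 6.97, 7.37 and 7.49 in controls and 6.81, 6.20, 6.55 and 6.78 in tumours, so its groups were separated by a small gap. Irf5, a factor of myeloid cells that acts below Toll-like receptors, fell by 0.49 (SE 0.11), from 6.78 to 7.13 in controls to 6.28 to 6.50 in tumours.

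The other 4 factors did not pass. Irf1, which interferon gamma induces strongly, had means of 7.35 ± 0.35 and 6.84 ± 0.24 (SD, n = 4 and 4), and its change of -0.51 had an SE of 0.18 (adjusted p = 0.0586 in limma). It passed as lower under 5 of 15 alternatives, with adjusted p between 0.0216 and 0.142 over all of them. Irf3, which sensors activate without prior induction, changed by -0.25 (interval -0.53 to 0.04). Irf7, the amplifier of interferon alpha production, changed by -0.08 at values near the dim reference. Irf8, a factor of macrophages and dendritic cells, had means of 6.56 ± 0.07 and 6.60 ± 0.11 (SD, n = 4 and 4), and its change of 0.04 had a narrow interval of -0.17 to 0.25.

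Usp18 was the only member that rose. It encodes the protease that removes ISG15 from proteins and also blocks signalling at IFNAR2. Usp18 read 6.48, 6.49, 7.12 and 6.54 in controls and 7.81, 8.82, 8.12 and 7.14 in tumours. The mean difference was 2.48-fold (log2 change 1.31, SE 0.30, adjusted p = 0.00768 in limma), yet the lowest tumour, tumour 4, lay just above control liver 3. The tumours spread more than the controls, with an SD of 0.70 against 0.31. Over 15 alternatives the change lay between 1.03 and 1.59 and adjusted p between 0.00141 and 0.0252.

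None of the 3 IFIT or 6 OAS genes passed the test in limma, where 28.9% of all genes passed in either direction. At an unadjusted p under 0.05 only Oas2 did. IFIT proteins bind foreign RNA, and OAS proteins make the messenger that activates RNase L. Ifit3 read 6.35, 6.06, 7.50 and 6.12 in controls and 6.01, 5.01, 6.08 and 6.28 in tumours, with control liver 3 high and tumour 2 low (log2 change -0.66, SE 0.35, adjusted p = 0.197 in limma). Ifit1 had a change of -0.32 and Ifit2 of 0.13. Leaving out control liver 3 brought the Ifit3 change to -0.33 and that of Ifit1 to -0.14. The 6 OAS changes lay between -0.28 (Oas2) and 0.17 (Oasl2), and their 95% intervals lay within -0.56 and 0.53. Oas1b, which most laboratory strains carry in a truncated form, stayed at 4.72 to 5.36 on all 8 arrays. The catalytically inactive relative Oasl1 did not overlap between groups (6.98 to 7.20 in controls, 6.79 to 6.96 in tumours), though its change of -0.20 did not pass. Members of a family have similar sequence, and whether their probe sets detect each other's transcripts was not tested.

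Of the remaining antiviral effectors, Mx2 and Ifih1 fell. Mx2, a dynamin-like GTPase, read 7.50, 6.77, 6.94 and 6.82 in controls and 6.27, 6.10, 6.21 and 6.27 in tumours (log2 change -0.795, SE 0.15), with control liver 1 the highest. The tumour values lay close to the dim reference, so this difference may be a limit. Mx1, its relative, which is defective in many laboratory strains, read 4.74 to 5.36 on all arrays. Rsad2, encoding viperin, had a change of -0.32 (interval -0.63 to -0.01, adjusted p = 0.117 in limma). Ifih1, encoding the double-stranded RNA sensor MDA5, showed one of the largest differences in the list. It read 8.85, 8.46, 9.04 and 8.20 in controls and 6.48, 6.57, 6.71 and 6.86 in tumours, a 3.96-fold fall with no overlap (log2 change -1.98, SE 0.18, adjusted p = 1.33e-05 in limma).

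Of the membrane restriction factors, Ifitm3 alone passed. IFITM proteins stop enveloped viruses from fusing with the membranes of endosomes or the cell surface. Ifitm3 read 12.49, 12.14, 12.23 and 12.19 in controls and 10.18, 9.66, 10.58 and 10.01 in tumours. This was the largest fall among the members, 4.45-fold, and every tumour was lower than every control by over 1 log2 unit (log2 change -2.15, SE 0.18, adjusted p = 8.03e-06 in limma). The neighbouring family member Ifitm2 read 11.12, 10.02, 10.43 and 10.81 in controls and 10.74, 9.95, 10.41 and 9.87 in tumours, and its groups overlapped (change -0.35, SE 0.25). Its other 2 probe sets gave -0.60 and -0.39. Ifitm1 changed by -0.45 (SE 0.16, adjusted p = 0.0539 in limma), and it passed as lower under 7 of 15 alternatives. Bst2, or tetherin, which holds budding virions at the cell surface, changed by -0.16 (interval -0.48 to 0.15).

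Irgm1, Rtp4 and Parp14 fell, while Gbp3 showed no shift between groups but a wide spread in controls. Irgm1, an immunity-related GTPase that regulates the other GTPases of its family, read 8.26, 8.33, 8.83 and 8.15 in controls and 7.32, 7.23, 7.003 and 7.37 in tumours (2.23-fold; log2 change -1.16, SE 0.15). Rtp4, an interferon-induced chaperone for receptors, read 8.31, 8.21, 8.89 and 8.40 in controls and 7.19, 6.81, 7.39 and 7.62 in tumours (2.30-fold; -1.20, SE 0.19). Both were highest in control liver 3 among the controls. Parp14, a mono-ADP-ribosyltransferase, read 8.22, 7.64, 8.24 and 7.42 in controls and 6.84, 6.56, 7.16 and 7.23 in tumours (-0.94, SE 0.21), with a small gap between the groups. Gbp3, a guanylate-binding GTPase, read 5.88, 6.05, 7.28 and 5.64 in controls and 6.14, 6.00, 6.37 and 6.41 in tumours. Its change of 0.02 (interval -0.65 to 0.68) became 0.37 without control liver 3 (adjusted p = 0.0881 in limma). Ifi35, a leucine zipper protein, and Xaf1, a proapoptotic factor, changed by -0.30 and -0.48 (adjusted p = 0.0928 and 0.0689 in limma).

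**Figure D2:**
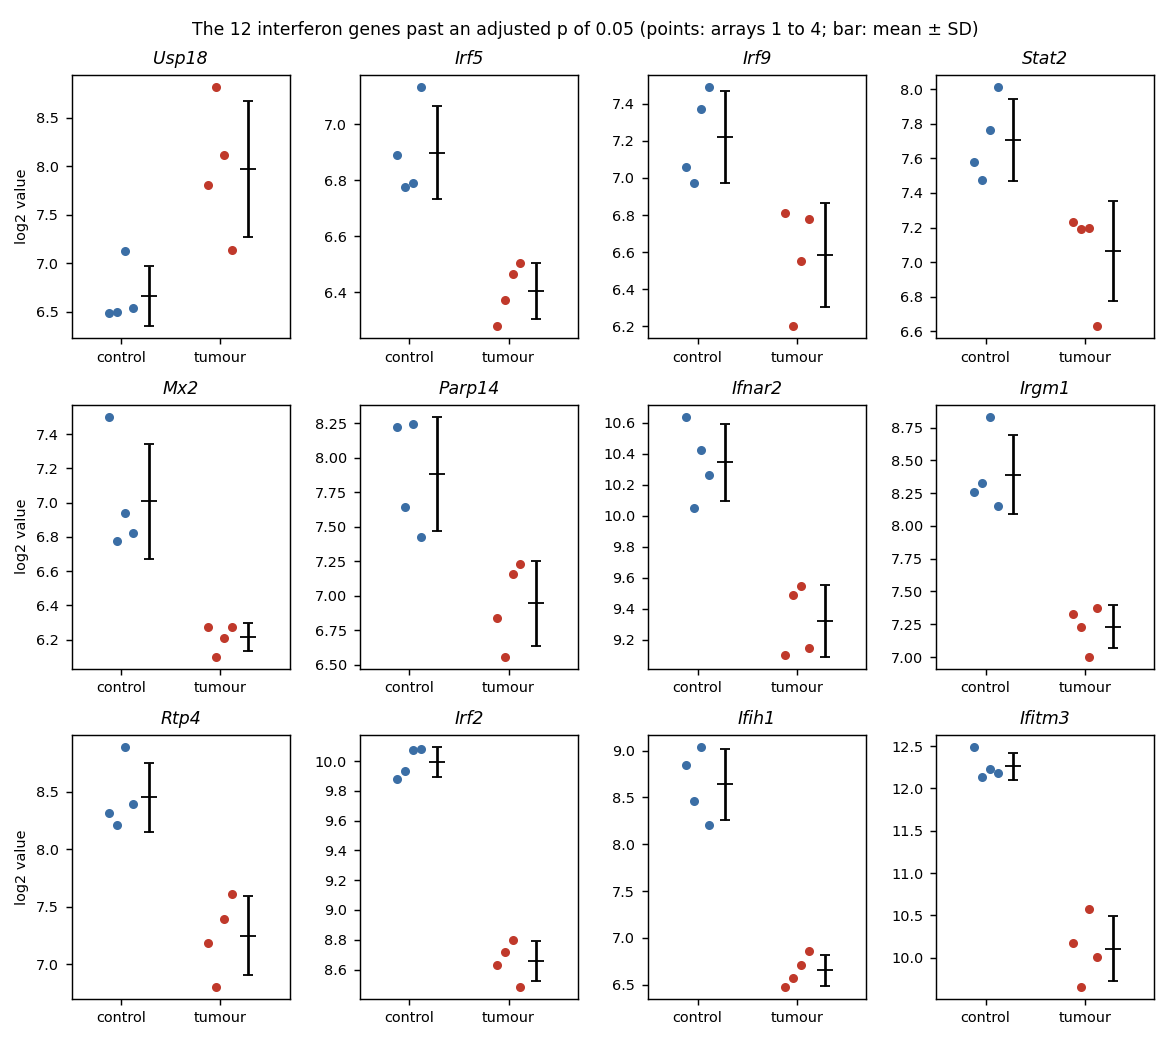
Log2 values of the 12 interferon response genes that passed an adjusted p of 0.05, on each of 4 control and 4 tumour arrays, ordered from the rise of Usp18 to the fall of Ifitm3, with each panel on its own log2 axis. Points are arrays 1 to 4 from left to right and each bar spans the group mean ± SD; tumours lie above controls for Usp18 and below them for the other 11.

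Within each group the arrays differed in the average level of the induced members. For the 24 measured members that are neither receptors nor transcription factors, control liver 3 lay 0.24 above the mean of the controls on average, against -0.12 to -0.01 for the other controls. It was the highest control for 13 of the 24 (54.2%), while it was the highest for 22.2% of all genes. The gap to the next control was large for Ifit3, Gbp3, Usp18 and Ifit1, at 1.16, 1.22, 0.58 and 0.60 log2 units. Control liver 3 is also the array with high Xist and low Eif2s3y, and the part of sex in this difference was not tested. Among tumours, tumour 2 lay 0.21 below the tumour mean and was the lowest for 15 of the 24 (62.5%), against 23.5% of all genes. The same tumour had the highest Usp18. Tumour 4 was the highest tumour for 15 of the 24 (62.5%), but it was so for 42.4% of all genes as well. These positions are descriptions of single arrays, with no test.

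**Figure D3:**
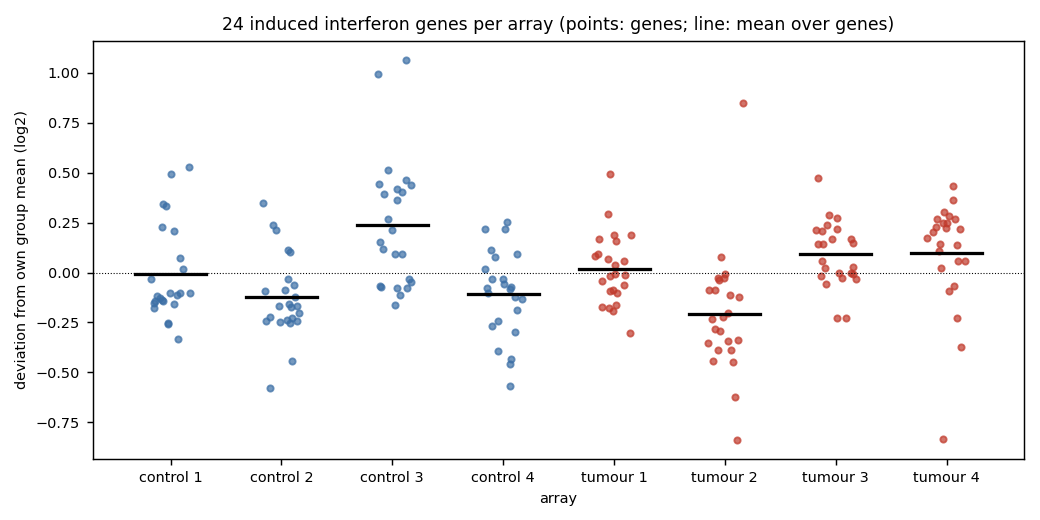
Deviation of each of 24 induced interferon genes from the mean of its own group (log2), by array, for controls (blue) and tumours (red). Points are genes, scattered sideways for visibility, and black lines are means over genes; control 3 has the highest line, at 0.24, and tumour 2 the lowest, at -0.21.

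Other genes of the pathway were taken from 4 further lists, whose counts can be read against the 12.7% of all genes that fell and the 16.2% that rose. Of 43 further interferon-stimulated genes measured of 50 listed, 15 fell, 5 rose and 23 did not pass, with a median change of -0.19. Iigp1, an immunity-related GTPase, showed the largest fall, from 11.52, 10.97, 11.15 and 10.87 in controls to 6.63, 7.41, 7.62 and 6.85 in tumours (log2 change -4.00, SE 0.22). Herc6, the mouse ligase for ISG15, fell by 1.62 (SE 0.23). Parp9, a macrodomain partner of the ligase Dtx3l, fell by 1.32 (SE 0.18). Cxcl9 and Cxcl10, chemokines that bind the same receptor on T cells, went in opposite directions. Cxcl9 read 7.43, 8.28, 9.50 and 6.98 in controls and 6.37, 5.76, 6.31 and 7.09 in tumours (change -1.67, SE 0.48). Its groups overlapped through control liver 4 and tumour 4, and the call was lost when control liver 2, tumour 1, tumour 2 or tumour 3 was left out and with an intensity trend (limma adjusted p from 0.0544 to 0.0676). Cxcl10 read 6.11, 6.66, 7.14 and 6.54 in controls and 7.90, 7.72, 8.23 and 6.99 in tumours (1.10, SE 0.27), where tumour 4 lay below control liver 3.

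Ifi30, a lysosomal thiol reductase of antigen processing, rose by 1.60 (SE 0.22), and Psmb10, an immunoproteasome subunit, by 0.91 (SE 0.19). The other immunoproteasome subunits went the opposite way, with Psmb8 at -0.97 (SE 0.14) and Psmb9 at -1.07 (SE 0.16). Isg20, an exonuclease, rose by 0.79 (SE 0.23), a call lost with array weights and without control liver 2 or tumour 4 (adjusted p = 0.0745, 0.0762 and 0.0592 in limma). Psmb8 and Psmb9 were picked for naming after their values were seen, to stand beside Psmb10. Control liver 3 was the highest control for 26 of these 43 genes (60.5%). Without it 8 of the further stimulated genes rose, and without tumour 2 only 9 fell. Tumour 4 was the highest tumour for 7 of the 43 (16.3%), unlike its position among the induced members.

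Of 12 measured genes of the JAK-STAT relay and its feedback, 4 rose and 2 fell. The kinases Jak1 and Jak2 fell, with log2 changes of -0.65 (SE 0.11) and -0.84 (SE 0.12) and all tumours below all controls. Ptpn2, a phosphatase of JAK and STAT proteins, rose by 0.82 (SE 0.12), and Il10rb, a receptor chain shared by interleukin 10 and type III interferon, by 1.08 (SE 0.19). The phosphatase Ptpn11 rose by 0.43 (SE 0.11). Pias1, an inhibitor of STAT signalling, rose by 0.49 (SE 0.15), a call lost under 7 of 15 alternatives (adjusted p between 0.0505 and 0.0817 in limma). The inducible inhibitors Socs1 and Socs3 changed by 0.04 and -0.06 and did not pass; these 2 were named after their values were seen.

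Among 17 measured genes of nucleic acid sensing, 2 rose, 3 fell and 12 did not pass, which is near the shares over all genes. Tlr7, an endosomal receptor for single-stranded RNA, read 5.02, 4.99, 5.22 and 4.998 in controls and 6.20, 6.36, 6.66 and 6.59 in tumours (change 1.39, SE 0.12). Its control values lay under the dim reference, so the fold is a limit. Tlr3, the endosomal receptor for double-stranded RNA, fell by 1.11 (SE 0.16). The adaptor Myd88 and the kinase Ikbke changed by -0.87 (SE 0.12) and -0.48 (SE 0.12) and were the other falls; the tumour mean of Myd88 lay under the dim reference, so its difference is a limit. Trim25, a ligase in the RIG-I branch, rose by 0.52 (SE 0.14), a call lost without tumour 1 (adjusted p = 0.0590 in limma). The count of falls in this list was 5 with quantile normalisation, with array weights, without the dimmest genes, or without control liver 2 or 4, and the count of rises was 1 without the dimmest genes or tumour 1. Of 14 measured interferon genes none rose and 1 passed as lower, and 7 had both group means at or under the dim reference. The rest lay above it, up to a tumour mean of 8.14 for Ifnl2, which does not by itself show expression. The gene that passed, Ifna9, changed by -0.32 (SE 0.11, adjusted p = 0.0472 in limma). The call was lost with the replicate number as a block and when control liver 1, control liver 2, tumour 1, tumour 2 or tumour 3 was left out (limma adjusted p from 0.0935 to 0.121). Interferon alpha genes are near-identical copies, so their values are uncertain.

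**Figure D4:**
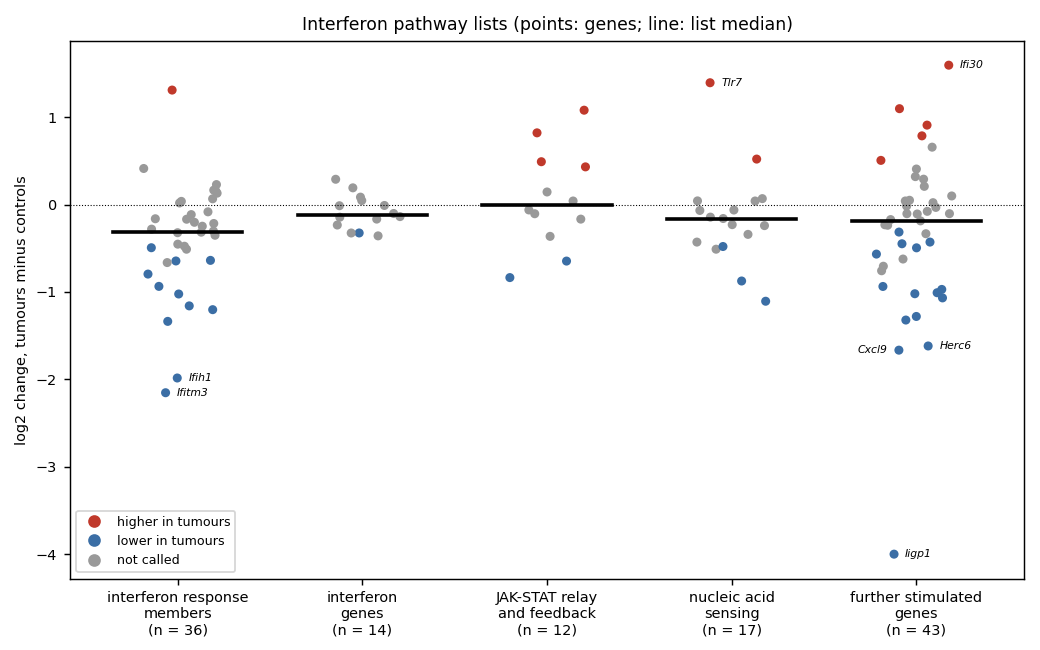
Log2 change (tumours minus controls) of the 36 interferon response genes and of 4 further lists of the interferon pathway, with the number of measured genes under each. Points are genes, blue lower and red higher at an adjusted p of 0.05, grey not passing, and black lines are medians, which lie at -0.31 for the members and at -0.19 for the further stimulated genes; Iigp1 is the lowest point, at -4.00.

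Markers of liver cell types differed between the same arrays. Their counts, too, can be read against the 12.7% of all genes that fell and the 16.2% that rose. The hepatocyte identity of the tissue was borne by all 8 measured hepatocyte markers, which all fell but stayed bright, with a list mean of 12.34 to 12.55 in controls and 11.64 to 12.04 in tumours; the calls of Apoa1 and Ttr were lost under 4 and 1 of 15 alternatives. Sinusoidal endothelial markers fell in 6 of 8 cases, with a list mean of 7.43 to 8.13 in controls and 6.16 to 6.52 in tumours. The tumour means of 3 of the 8 lay at or under the dim reference, so those differences are limits. Stab2, a scavenger receptor of these cells, changed by -1.53 (SE 0.17). Stab1 and Lyve1 changed by -0.25 (SE 0.11) and 0.22 (SE 0.20) and did not pass. Kupffer cell markers fell in 3 of 8 cases, rose in 1 and did not pass in 4. Their list mean was 8.02 to 8.31 in controls and 6.99 to 7.46 in tumours, while the median change was -0.24, so the mean rests on the 3 large falls. Clec4f, which marks Kupffer cells, changed by -1.75 (SE 0.18) and Vsig4 by -2.38 (SE 0.50), and C6, a complement gene on that list, by -4.34 (SE 0.61). The Kupffer list means separated the groups only with C6 included, and leaving C6 out was chosen after seeing the data. C6 read 7.90 in control liver 3, the array with high Xist, against 10.91 to 11.17 in the other controls, and its tumour mean lay under the dim reference, so its difference is a limit. Cd5l, a secreted macrophage protein, was the marker that rose (0.79, SE 0.24), a call lost under 4 of 15 alternatives (limma adjusted p from 0.0676 to 0.0863 there).

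Of 10 monocyte and macrophage markers 4 rose, none fell and 6 did not pass, of which 3 lay under the dim reference in both groups. Lyz2, the lysozyme gene of myeloid cells, rose by 2.61 (SE 0.36) and Cd68 by 2.11 (SE 0.26), and the list mean was 6.98 to 7.74 in controls, highest in control liver 3, and 7.93 to 8.36 in tumours. Ptprc, the pan-leukocyte gene, changed by 0.31 (SE 0.22), and Cd14 and Ccr2, both under the reference, by -0.04 and -0.15; none of these passed. Of 10 dendritic cell markers, Clec9a fell by 1.38 (SE 0.24), a limit because its tumour mean lay under the reference, and none rose. The dendritic list mean was 6.25 to 6.39 in controls and 6.12 to 6.20 in tumours. Without Clec9a, a setting chosen after seeing the data, it was 6.20 to 6.27 and 6.13 to 6.27, and the groups overlapped. The list includes the member Bst2, and Itgax, Flt3 and Xcr1 were under the dim reference in both groups, as were 5 of the 10 in all. None of 15 T and NK cell markers passed in limma, nor did any at an unadjusted p under 0.05, and 10 of them lay under the reference in both groups. One of 7 B and plasma cell markers passed as lower, Jchain, at values under the reference, and its call was lost under 10 of 15 alternatives (limma adjusted p from 0.0505 to 0.117 there). None of 10 neutrophil markers passed in limma, with 1 at an unadjusted p under 0.05, and their list mean was 6.49 in control liver 1, 5.56 to 5.71 for the remaining controls, against 5.44 to 5.83 in tumours. General endothelial markers fell in 4 of 8 cases, stellate cell and fibroblast markers in 4 of 10 with 1 rise, and bile duct markers in 1 of 4 with 1 rise. The part of cell makeup in the changes of the interferon response genes was not tested.

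**Figure D5:**
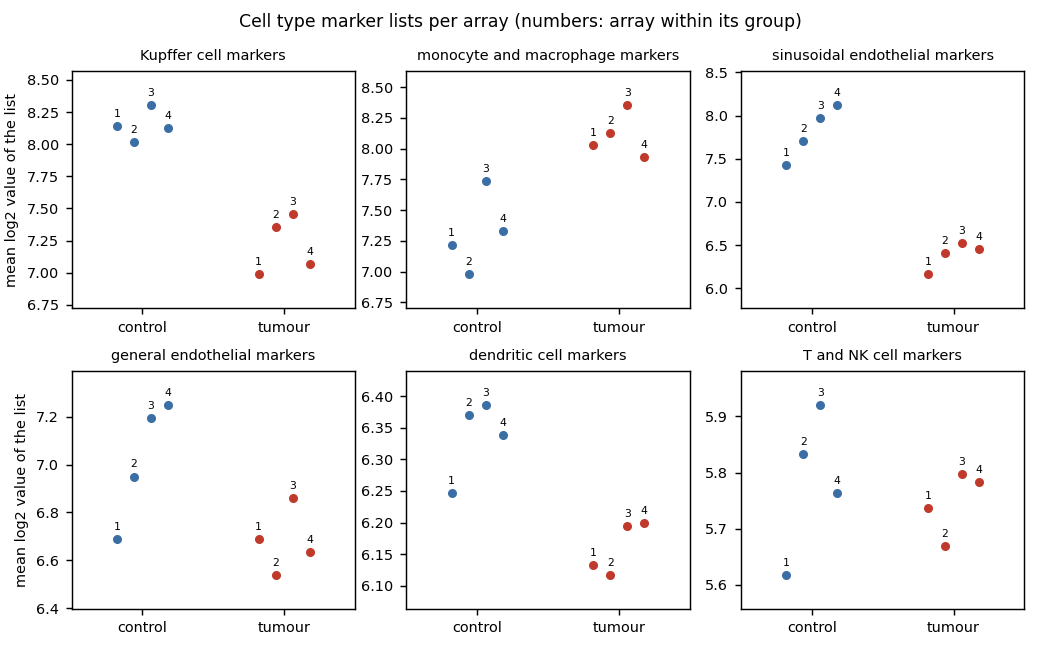
Mean log2 value of 6 lists of cell type markers on each array, with numbers giving the array within its group and each panel on its own axis. Tumours lie below controls for sinusoidal endothelial markers and, only with C6 included, for Kupffer cell markers. They lie below controls for dendritic cell markers through Clec9a alone, and above them for monocyte and macrophage markers. Leaving out C6 or Clec9a was chosen after seeing the data. The groups overlap for general endothelial and for T and NK cell markers.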

How the data were processed

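The authors deposited 1 table of log2 values per probe set and array. Per the submitters' processing notes it was made with RMA, which corrects background, normalises between arrays and summarises probes, in R 3.0.2; settings and genome build are not given in the sources used here. Of 34760 probe sets, 21640 had 1 gene symbol in the platform's annotation, 1321 had several and were not used, and 11799 had none. The 8 arrays were compared in limma 3.58.1 (lmFit, eBayes; R 4.3.3) over 19937 genes, in a model with no covariate beside group and with Benjamini-Hochberg adjustment. Means carry the SD of 4 arrays; log2 differences carry limma's SE and 95% interval. Arrays give no counts, so their number limits precision. The fit was tested on simulated data. Members and lists were chosen with earlier results of these data known. Named genes are all members; in each pathway list up to 4 rises and 4 falls, the largest past the threshold; and in each marker list the first 3 genes and the largest change in each direction, of which some are given here. Listed genes with no probe set of their own name, or with a shared one, were not analysed here. Tables and plots used Python 3.11.15, pandas 2.3.3 and matplotlib 3.10.9. Alternatives are given in the closing section.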

Additional observations from a re-analysis of the deposited data

Results flagged for a closer look

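In 8 of the 72 groups of 4 arrays formed by the 36 interferon response genes, 1 array lay far from the other 3 by Dixon's criterion, and chance alone gives about 1 in 20. Usp18 read 7.12 in control liver 3 against 6.48 to 6.54 in the other controls. Stat2 read 6.63 in tumour 4 against 7.19 to 7.23, and Ifit2 read 5.57 in tumour 2 against 6.38 to 6.42. Ifngr2 read 7.28 in control liver 2 against 8.05 to 8.13, and Oas1a read 6.58 in the same liver against 6.08 to 6.15. Ifitm1 read 7.40 in control liver 4 against 7.74 to 7.77. At smaller gaps, Irf7 read 5.65 in tumour 3 against 5.94 to 5.99, and Irf8 read 6.43 in tumour 1 against 6.65 to 6.67. Of these genes Usp18 and Stat2 had passed the comparison, and both also passed without the array named here.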

How the results depend on the processing

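All 12 calls among the interferon response genes, 11 lower and Usp18 higher, held under the 15 alternatives: quantile normalisation, array medians subtracted, averaged probe sets, array weights, robust variance with an intensity trend, removal of the dimmest 33.3% of genes, replicate number as block, and leaving out each array. The count of lower members was 11 to 13 leaving out 1 array and 15 with array weights, where Irf1, Oas2, Rsad2 and Ifitm1 also passed. The median change of the members lay between -0.33 and -0.27 leaving out 1 array, against -0.31. Over all genes the falls numbered 2060 to 2561 and the rises 2763 to 3277 leaving out 1 array. Scaling moved the median of all genes by 0.03 or less. With the replicate block, 12 members were lower, Xaf1 in addition (adjusted p = 0.0240 in limma), and 1 was higher. Pairing by number was not seen: deviations of same-numbered arrays correlated at -0.06, 0.005, 0.05 and -0.32 across genes. Differently numbered arrays correlated between -0.22 and 0.31. Deviations cancel out within each group, so this check cannot exclude that samples were matched. Signs of members that passed in no fit, such as Gbp3, changed under some alternatives.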

Other observations

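The Usp18 value and most of the other induced members took opposite positions in tumours 2 and 4. Tumour 4 had the lowest Usp18 of the tumours, at 7.14. It was the highest tumour for 15 of the 24 induced members, as it was for 42.4% of all genes. The 43 further interferon-stimulated genes did not share this position: tumour 4 was the highest tumour for 7 of them (16.3%) and tumour 3 for 22 (51.2%). Tumour 2 had the highest Usp18 of the 8 arrays, at 8.82, and the lowest Ifit3, Ifit2 and Ifitm3 of the tumours, at 5.01, 5.57 and 9.66. Where several probe sets measured 1 member, they shared a direction: both Ifitm1 probe sets gave negative changes (-0.45 and -0.43), as did both for Irf1 (-0.51 and -0.26).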
